A study of Mus musculus with 12 samples.

Results

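The 7 genes described here encode subunits of the GABA-A receptor: Gabra2, Gabra3, Gabra4, Gabra5, Gabrb1, Gabrb2 and Gabrd. They were taken by gene symbol from a deposited table of estimated read counts that held 22236 genes, and all 7 were among the 15853 genes that passed the filter on low counts. Hippocampal mRNA was sequenced from male mice of the inbred strains C57BL/6J (B6) and DBA/2J (D2). The mice, 3 to 5 months old, had received an adeno-associated virus of serotype 9 and were killed at least 6 weeks later. In the KD groups the virus carried a short hairpin RNA against Hp1bp3 (AAV9-shRNA-Hp1bp3), which encodes a chromatin protein of the linker histone type. In the Ctrl groups it carried a scrambled hairpin (AAV9-scrmb-shRNA). Each of the 4 groups, B6 Ctrl, B6 KD, D2 Ctrl and D2 KD, held 3 libraries, each labelled with a mouse number of its own. Every library therefore came from an injected mouse and no uninjected mouse was analysed. The virus was placed in the dorsal hippocampus whereas RNA came from whole hippocampus, so each library mixed transduced and untransduced cells.

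GABA-A receptors are chloride channels opened by GABA, the main inhibitory transmitter of the adult brain, and each channel is a ring of subunits drawn from several families. Alpha and beta subunits form the GABA binding site, a gamma subunit favours a place at the synapse, and a delta subunit marks receptors outside it that carry slow, tonic inhibition. In the hippocampus, alpha 2 is found at synapses on the soma and axon initial segment of pyramidal cells, alpha 5 mostly outside synapses on pyramidal cell dendrites, and alpha 4 with delta on dentate granule cells. C57BL/6J mice carry a small intronic deletion beside a splice site of Gabra2 that is known to lower its expression. Its part in the values below was not tested. In bulk tissue, fewer cells of a type and less RNA per cell cannot be told apart.

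The alpha subunits also set the response to benzodiazepines. Those with a histidine at a given place in the extracellular domain bind diazepam, and those with an arginine there do not. The codon was found in the coding sequence of the 4 alpha members and of Gabra6 in the GENCODE M21 transcripts, and the stretches are shown because they separate the members by drug response. Each runs 5′ to 3′ on the mRNA strand and capitals mark that codon.
Gabra2: ttctttCACaatgggaaaaagtca
Gabra3: ttcttcCACaatggtaaaaaatca
Gabra4: ttcttcAGGaatggaaagaaatct
Gabra5: ttcttcCACaacggcaagaagtcc
Gabra6: tttttcCGGaatgggaaaaagtca
Gabra2, Gabra3 and Gabra5 carried a histidine codon, and Gabra4 and Gabra6 carried an arginine codon.

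On the GRCm38 assembly, 3 members lie together on chromosome 5. Gabra2 spans 70957597 to 71095849 on the minus strand, Gabra4 spans 71569749 to 71658308 on the minus strand, and Gabrb1 spans 71658113 to 72149037 on the plus strand. Exons at the starts of Gabra4 and Gabrb1 share 46 bases on opposite strands, of 6083 and 13838 exon bases. The counting was not stated to use strand, so reads in those bases could not be assigned to either gene with certainty. Gabrb2 lies on chromosome 11 from 42419757 to 42629028 (plus strand) and Gabra5 on chromosome 7 from 57407672 to 57510059 (minus strand). Gabra3 lies on chromosome X from 72432681 to 72656848 (minus strand) and Gabrd on chromosome 4 from 155384980 to 155398112 (minus strand). GENCODE M21 lists 6 Gabra2 transcripts, of which 1 is protein coding, 2 are marked for nonsense-mediated decay and 2 retain an intron. The gene counts sum over such transcripts.

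RefSeq promoters of GRCm38.p6, each from 250 bases before to 50 bases after a transcription start, were at hand for 6 of the 7 members. Those of the 3 members that differed between strains and of Gabra4, which starts beside Gabrb1, are printed 5′ to 3′ on the strand of the gene. For genes with several starts, the first along the chromosome is given. Capitals mark a GC box (GGGCGG) or a TATA box (TATAAA) on either strand, and overlapping matches were allowed. The assembly is that of C57BL/6J, so these are B6 letters and the D2 alleles are not in them.
Gabra2, chr5:71095800-71096099 (minus strand): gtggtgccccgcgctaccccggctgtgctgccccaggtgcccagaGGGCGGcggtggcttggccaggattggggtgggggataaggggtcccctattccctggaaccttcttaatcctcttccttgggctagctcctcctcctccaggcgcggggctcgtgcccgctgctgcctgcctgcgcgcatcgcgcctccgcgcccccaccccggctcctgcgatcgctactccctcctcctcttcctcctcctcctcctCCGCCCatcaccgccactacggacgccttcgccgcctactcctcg
Gabra4, chr5:71658259-71658558 (minus strand): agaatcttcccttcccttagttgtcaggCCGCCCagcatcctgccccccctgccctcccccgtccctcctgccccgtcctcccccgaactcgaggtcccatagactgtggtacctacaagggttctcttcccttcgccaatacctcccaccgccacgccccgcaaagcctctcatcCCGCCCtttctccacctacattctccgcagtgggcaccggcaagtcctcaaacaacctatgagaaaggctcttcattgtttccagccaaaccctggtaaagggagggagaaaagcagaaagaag
Gabrb1, chr5:71657671-71657970 (plus strand): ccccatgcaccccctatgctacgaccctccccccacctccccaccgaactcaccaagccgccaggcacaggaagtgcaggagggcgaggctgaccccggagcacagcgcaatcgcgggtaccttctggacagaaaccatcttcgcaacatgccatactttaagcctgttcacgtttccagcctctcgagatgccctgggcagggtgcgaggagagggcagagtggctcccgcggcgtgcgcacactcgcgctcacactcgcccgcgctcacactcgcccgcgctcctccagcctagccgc
Gabrb2, chr11:42420190-42420489 (plus strand): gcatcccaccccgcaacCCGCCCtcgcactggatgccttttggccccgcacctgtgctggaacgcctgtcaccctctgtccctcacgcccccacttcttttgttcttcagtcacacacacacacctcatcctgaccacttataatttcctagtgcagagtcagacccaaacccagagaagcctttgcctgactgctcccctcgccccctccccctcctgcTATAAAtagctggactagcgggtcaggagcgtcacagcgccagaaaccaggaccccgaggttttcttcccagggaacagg
Over the 32851 mouse promoters of this length, the median GC content was 52.7% and the median number of CpG sites was 7. The Gabra2 promoter had a GC content of 70.0% and 25 CpG sites, and that of Gabrb1 66.0% and 25. The GC box, found in 35.7% of all promoters, was present in the windows of Gabra2, Gabra4 and Gabrb2 and not in that of Gabrb1. The TATA box, found in 13.6%, was present in the window of Gabrb2 and in those of Gabra3. The cyclic AMP response element TGACGTCA, found in 1.8%, matched none of the member promoters.

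Depth was 18213084 to 39420219 estimated counts per library, and levels are given in CPM, the edgeR unit that sets each count against the scaled total of its library. The hairpin target was measured first. Hp1bp3 stood at 308, 294 and 310.1 CPM in B6 Ctrl and at 185, 182 and 259 CPM in B6 KD, and at 226, 215 and 234 CPM in D2 Ctrl and 177, 163 and 229.5 CPM in D2 KD. The library labelled D2 KD 3 lay inside the D2 Ctrl range. Hp1bp3 did not pass the test in B6 (log2 fold change −0.54 ± 0.15 (SE), adjusted p = 0.0760) or in D2 (−0.25 ± 0.15, adjusted p = 1.0) by edgeR's quasi-likelihood test with Benjamini-Hochberg adjustment. Its unadjusted p in B6 was 0.00442 by the same edgeR test. Averaged over strains the log2 fold change was −0.39 ± 0.11 (edgeR, unadjusted p = 0.00367, adjusted p = 0.0907). That averaged difference passed in 2 of 12 fits that left out a library and in 1 of 8 other alternatives. Hp1bp3 passed in B6 under DESeq2 (adjusted p = 0.00825), without B6 KD 3 (0.0226) and without D2 KD 3 (0.0469). The summed CPM of 8 choroid plexus markers split the libraries into 5 at 60.5 to 195 and 7 at 2757 to 5169. Each group contained libraries of both kinds, but not in equal numbers. The sums were 80.0, 2757 and 155 in B6 Ctrl and 149, 4202 and 5125 in B6 KD. In D2 they were 195, 3983 and 5099 in Ctrl and 4937, 60.5 and 5169 in KD. Library B6 KD 3 was the highest in several cerebellar genes, and the granule cell subunit Gabra6 was at 14.1 CPM (559 counts) there against at most 2 counts elsewhere. The summed CPM of 7 cerebellar markers, listed after the data were seen, was 222 in that library and 40.12 to 76.7 in the other 11. Results that rest on B6 KD 3 or the library labelled D2 KD 3 are given without them where that changed a call.

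The strain comparison asked whether subunit expression differed between the genetic backgrounds. The study's methods state that reads were aligned to the C57BL/6J or the DBA/2J genome according to strain, so strain and reference genome cannot be told apart in any strain difference given here. Averaged over treatments, Gabra2 and Gabrb2 were higher and Gabrb1 was lower in D2, and Gabra3, Gabra4, Gabra5 and Gabrd did not pass the test. Thus 2 of 7 members were called higher and 1 of 7 lower at an adjusted p under 0.05. Of all tested genes, 21.3% were called in this comparison, 8.64% higher in D2 and 12.7% lower. The same 3 members were the ones whose 6 D2 libraries did not overlap their 6 B6 libraries, a pattern shown by 14.5% of all tested genes. The members' median log2 difference was −0.07 and that of all tested genes 0.02.

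Gabra2 was measured at 66.7, 56.9 and 77.2 CPM in B6 Ctrl and at 76.0, 75.0 and 51.5 CPM in B6 KD. In D2 it stood at 197, 196 and 200.5 CPM in Ctrl and at 178, 207 and 181 CPM in KD. The lowest D2 library was above the highest B6 library. The mean was 67.2 ± 10.9 CPM (SD, n = 6) in B6 and 193 ± 11.3 CPM (SD, n = 6) in D2, a ratio of 2.87. The log2 fold change was 1.52 ± 0.11 (SE) averaged over treatments (edgeR, adjusted p = 1.39e-06), 1.56 ± 0.15 in Ctrl and 1.48 ± 0.15 in KD. An exact two-sided permutation test that exchanged strain labels within each treatment gave p = 0.005. This is the smallest its 400 assignments allow, and it follows from the lack of overlap. Leaving out any library kept the log2 difference between 1.45 and 1.59, so neither B6 KD 3, which was the lowest, nor the library labelled D2 KD 3 decided it.

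Gabra4, which lies in the same chromosome 5 cluster as Gabra2, was the steadiest member. Its 12 libraries spanned 107 to 131 CPM, with means of 115 ± 6.99 CPM in B6 and 124 ± 4.91 CPM in D2 (SD, n = 6 each). The log2 difference of 0.12 ± 0.05 did not pass the test (adjusted p = 0.173), and the strains overlapped.

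Gabra5, which encodes the main extrasynaptic alpha subunit of pyramidal cells, ranged from 135 to 187 CPM in B6 (median 162) and from 107 to 166 CPM in D2 (median 139). The log2 difference was −0.21 ± 0.10 (adjusted p = 0.165). Gabra3, an alpha subunit more abundant in other forebrain regions, ranged from 64.6 to 119 CPM in B6 and from 62.7 to 116 CPM in D2. Its log2 difference was −0.07 ± 0.15 (adjusted p = 0.806), and the ranges overlapped almost fully.

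Gabrb1, whose start lies beside that of Gabra4, was the member that was lower in D2. It was measured at 51.5, 45.5 and 42.2 CPM in B6 Ctrl and at 58.3, 45.3 and 49.5 CPM in B6 KD. In D2 it was at 25.2, 26.1 and 33.7 CPM in Ctrl and at 34.7, 35.5 and 27.6 CPM in KD. The highest D2 library thus stayed below the lowest B6 library. The means were 48.7 ± 5.73 CPM and 30.5 ± 4.63 CPM (SD, n = 6 each), 1.60 times higher in B6. The log2 fold change was −0.68 ± 0.10 (edgeR, adjusted p = 0.000515), −0.71 ± 0.15 in Ctrl and −0.65 ± 0.15 in KD.

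Gabrb2 encodes a beta subunit. It had the largest strain difference of the members and by far the largest spread. The B6 Ctrl libraries were at 20.2, 28.3 and 98.8 CPM and the B6 KD libraries at 67.5, 47.5 and 10.7 CPM. The D2 Ctrl libraries were at 244, 269.8 and 156 CPM and the D2 KD libraries at 134, 184 and 219 CPM. Within B6 the highest library was 9.22 times the lowest, against 1.38 times for Gabrb1 and 1.18 times for Gabra4, yet all B6 libraries stayed below all D2 libraries. The log2 fold change was 2.14 ± 0.48 averaged over treatments (edgeR, adjusted p = 0.00700). Within Ctrl it was 2.18 ± 0.68 (adjusted p = 0.0566) and within KD 2.10 ± 0.67 (adjusted p = 0.0623), neither of which passed.

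Gabrd, the delta subunit, ranged from 10.4 to 29.96 CPM in B6 (median 20.98) and from 7.83 to 27.8 CPM in D2 (median 17.7). The log2 difference of −0.20 ± 0.27 did not pass the test (adjusted p = 0.677). Within Ctrl, 2 of 7 members were called between strains, Gabra2 (adjusted p = 3.52e-05) and Gabrb1 (0.00644), where 14.0% of all tested genes were. Within KD, the same genes were called, Gabra2 (5.54e-05) and Gabrb1 (0.0110), where 15.0% of all tested genes were. Gabrb2 was called as well within each treatment by DESeq2 (adjusted p = 0.0119 and 0.0153) and by limma-voom (0.0306 and 0.0322), and without B6 Ctrl 3 (0.0105 and 0.0261). Within Ctrl it was also called without B6 KD 3 (0.0200) and with the choroid plexus score as a covariate (0.0441).

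**Figure D1:**
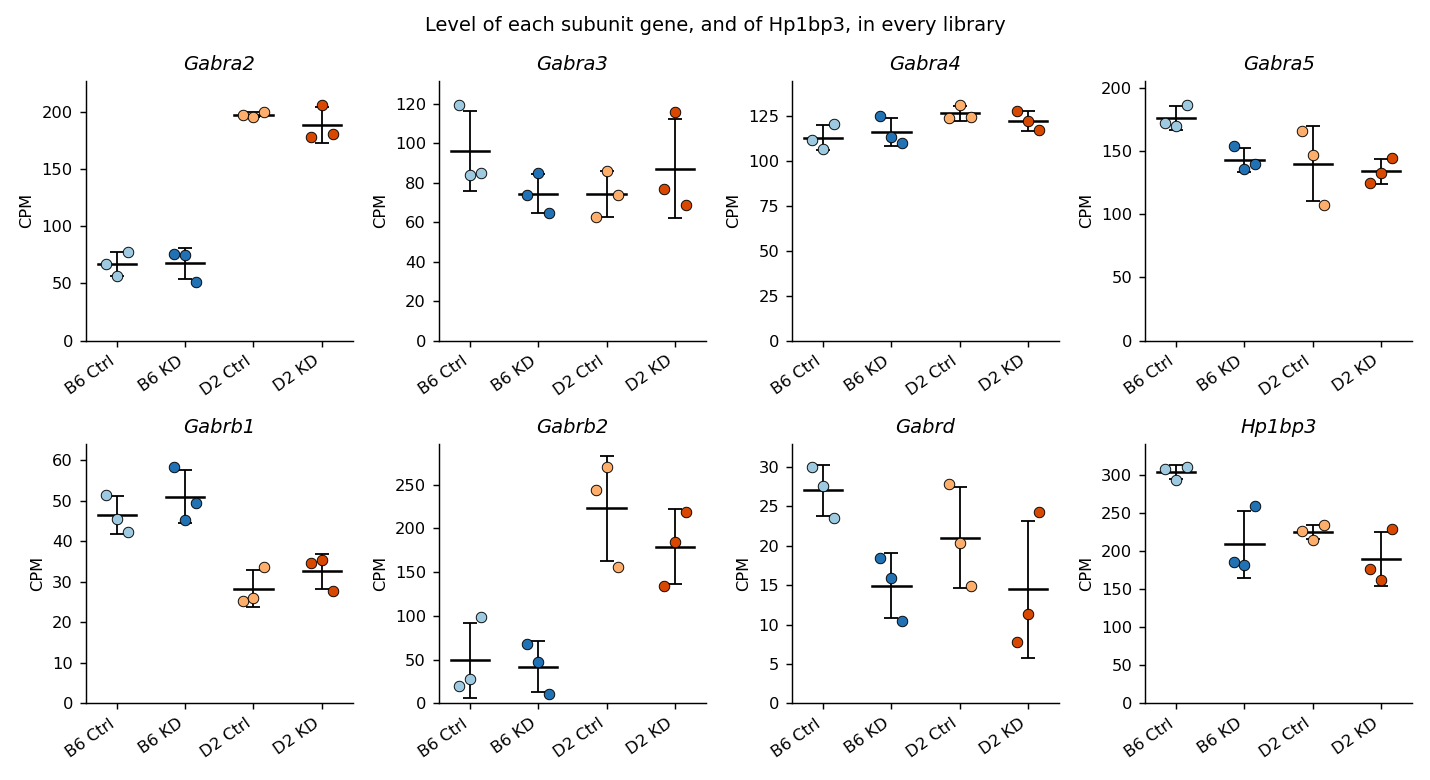
CPM of the 7 subunit genes and of Hp1bp3 in the 12 libraries; each point is a library, the wide line is the group mean and the bar is ± SD over 3 libraries. Gabra2 and Gabrb2 are higher in all D2 libraries than in all B6 libraries, Gabrb1 is lower, and Gabrd ranges from 7.83 to 29.96 CPM.

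**Figure D2:**
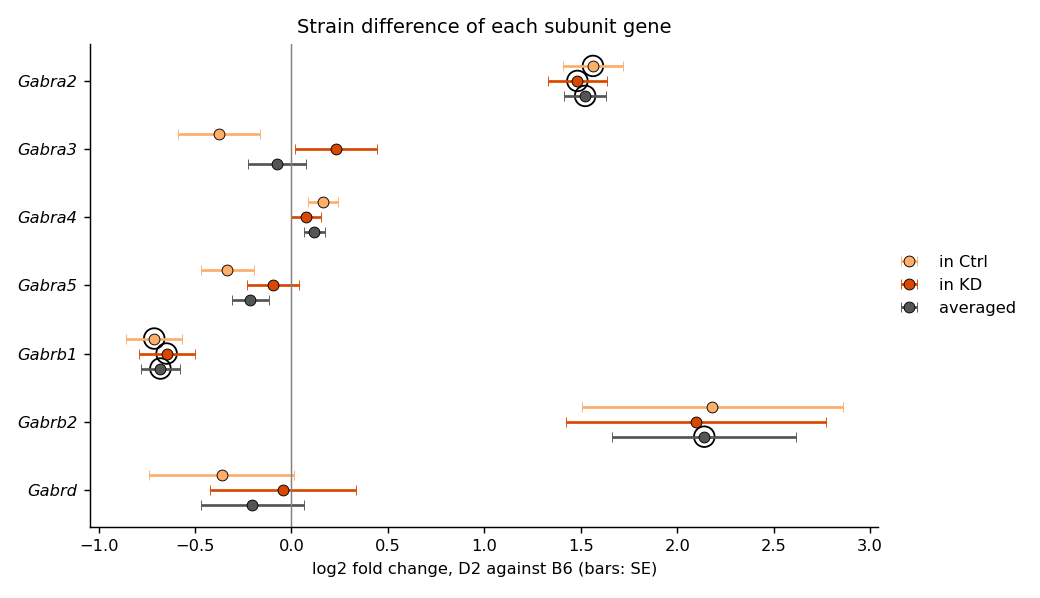
log2 fold change of each member in D2 against B6, in Ctrl, in KD and averaged over treatments, with bars for the SE and open circles for an adjusted p under 0.05 (edgeR). Averaged over treatments, circles mark Gabra2 at 1.52, Gabrb1 at −0.68 and Gabrb2 at 2.14, and the bars of Gabrb2 are the longest.

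To compare levels between genes, CPM was divided by the exon length of each gene in kb. In B6 the order was Gabra5 (53.6 ± 6.70 CPM per kb), Gabra3 (21.7 ± 4.74), Gabra4 (18.8 ± 1.15), Gabra2 (8.80 ± 1.43), Gabrd (7.30 ± 2.58), Gabrb2 (7.15 ± 5.20) and Gabrb1 (3.52 ± 0.41), each as mean and SD over 6 libraries. Gabra5 and Gabra3, and Gabra4 and Gabra2, did not overlap, whereas every other pair of neighbours in that order did. In D2 the order was Gabra5 (46.0 ± 6.78), Gabrb2 (31.6 ± 8.25), Gabra2 (25.3 ± 1.48), Gabra3 (20.5 ± 4.83), Gabra4 (20.5 ± 0.81), Gabrd (6.17 ± 2.69) and Gabrb1 (2.201 ± 0.33). There the only neighbours without overlap were Gabra4 and Gabrd, and Gabrd and Gabrb1. By this length, Gabra2 stood below all libraries of Gabra4 in B6 and above them in D2. The exon length was the union over transcripts, 7640 bases for Gabra2 and 6083 for Gabra4, whose longest transcripts have 5852 and 4108 bases. Levels by another length were not computed, and the order of genes may differ with it.

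The other GABA-A subunits gave the setting. Of 12 further subunit genes, 8 were tested, and 3 were called lower and none higher in D2 (median log2 difference −0.25, against 0.02 for all tested genes). Of all tested genes, 12.7% were called lower and 8.64% higher. The largest was Gabrg3, a gamma subunit gene on chromosome 7, which was at 17.6 to 26.4 CPM in B6 and 0.63 to 1.23 CPM in D2. Its log2 fold change was −4.61 ± 0.17 (edgeR, adjusted p = 6.66e-09), a CPM ratio of 24.4. The theta subunit gene Gabrq (−2.67 ± 0.60, adjusted p = 0.00740) and the rho subunit gene Gabrr2 (−1.01 ± 0.32, adjusted p = 0.0428) had mean levels of 1.78 and 0.61 CPM in B6 and 0.30 CPM each in D2, and the Gabrr2 call was lost in 9 of the 12 fits that left out a library. Gabrg1 and Gabre did not pass. Gabra6, Gabrp, Gabrr1 and Gabrr3 were too low to be tested.

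Around the chromosome 5 cluster, 13 of 17 listed genes were tested, Gabra2, Gabra4, Gabrb1 and Gabrg1 among them. Averaged over treatments, 2 were called higher and 2 lower in D2, where 8.64% and 12.7% of all tested genes were. Beside Gabra2 and Gabrb1, the call was passed by Guf1, a mitochondrial translation factor gene (−0.71 ± 0.09, adjusted p = 0.000181), and by Atp10d, a phospholipid flippase gene (1.17 ± 0.33, adjusted p = 0.0280). The Atp10d call was lost under limma-voom (adjusted p = 0.138), with library total as a covariate (0.0721) and without any of 9 libraries in turn. Gabrg1, the gene next to Gabra2 on the other side from Gabra4, stood at 23.8 and 25.9 CPM in B6 and D2 on average and did not pass (0.12 ± 0.13, adjusted p = 0.576).

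Genes were also ranked by how closely their level followed each member over the 12 libraries, as the root mean square difference of the centred log2(CPM + 1) values among 14180 other genes with a mean of at least 1 CPM. Nearest to Gabra2 were Zfp935 (0.091), Dclre1c (0.13), Zfp825 (0.14), Wdfy1 (0.15) and Gm14325 (0.16), which lie on chromosomes 13, 2, 13, 1 and 2. Each was higher on average in D2, as Gabra2 was. Zfp935, for example, averaged 5.38 CPM in B6 and 16.2 CPM in D2. Nearest to Gabrb2 were Palm2 (0.23), Zfp445 (0.26) and Atad2b (0.30). All of them shared its uneven B6 levels, with the lowest B6 value in B6 KD 3 and the highest in B6 Ctrl 3. Nearest to Gabrb1 were Shisa4 (0.11), Mrpl24 (0.13) and Rab36 (0.13). Nearest to Gabra3 were Mpped1 (0.13), Efnb2 (0.13) and Camk2d (0.13), nearest to Gabra4 were Nup107 (0.050), Gosr1 (0.052) and Tgs1 (0.052), and nearest to Gabra5 were Mpped2 (0.087), Hace1 (0.091) and Cabp1 (0.091). Nearest to Gabrd were Egfem1 (0.21), Npas4 (0.22) and Psrc1 (0.23). Between the members themselves, Gabra4 and Gabra5 were nearest (0.26), and Gabra2 and Gabrb1 were among the farther pairs (1.120). These distances are descriptions over libraries that share strain and treatment. The nearest genes were picked for likeness over these same 12 libraries, so the patterns they share with a member follow from that choice.

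**Figure D3:**
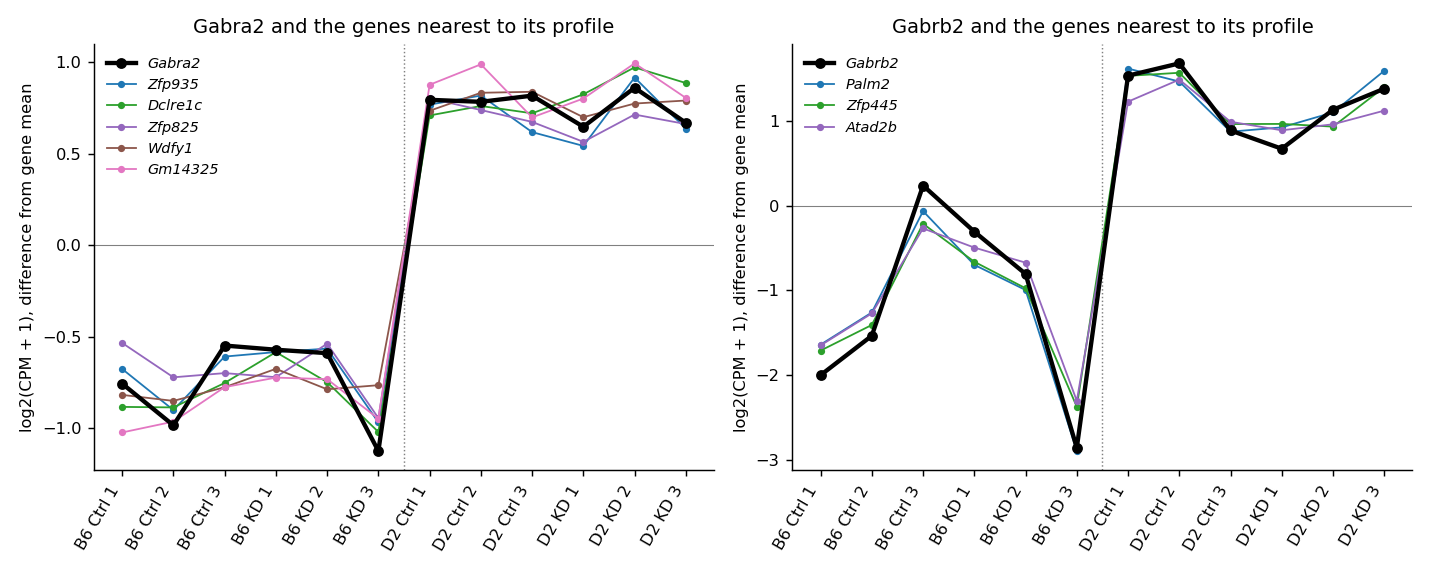
Centred log2(CPM + 1) of Gabra2 with its 5 nearest genes, left, and of Gabrb2 with its 3 nearest genes, right, over the 12 libraries; the dotted line separates B6 from D2. The Gabra2 lines are separated by strain throughout, and within B6 the Gabrb2 lines are all lowest in B6 KD 3 and highest in B6 Ctrl 3.

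The hairpin comparison asked whether subunit expression moved when Hp1bp3 was targeted. None of the 7 members passed the test in either strain, averaged over strains, or in the strain by treatment interaction, by edgeR, DESeq2 or limma-voom. At an unadjusted p under 0.05 by edgeR, 1 of 7 was counted in B6, 0 of 7 in D2, 1 of 7 averaged over strains and 0 of 7 in the interaction. Of all tested genes, 2.64% were called in B6 and 0.0% in each of the other comparisons. At an unadjusted p under 0.05, 3262 of the 15853 tested genes were counted in B6, 452 in D2, 3046 averaged over strains and 937 in the interaction. In B6, DESeq2 called 1688 genes and limma-voom 368. DESeq2 called 1 gene in D2, 1241 averaged over strains and 11 in the interaction, and limma-voom called 0 in each of these. The members' median log2 difference was −0.23 in B6 and −0.06 in D2, against 0.00252 and 0.00412 for all tested genes.

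Gabrd had the largest difference of the members. It was at 29.96, 27.6 and 23.5 CPM in B6 Ctrl and at 18.5, 15.9 and 10.4 CPM in B6 KD, so the B6 groups did not overlap. In D2 it was at 27.8, 20.4 and 14.9 CPM in Ctrl and at 7.83, 11.3 and 24.3 CPM in KD, and the highest KD value belonged to the library labelled D2 KD 3. The log2 fold change was −0.86 ± 0.38 in B6 (unadjusted p = 0.0452, adjusted p = 0.232), −0.54 ± 0.38 in D2 (adjusted p = 1.0) and −0.70 ± 0.27 averaged over strains (adjusted p = 0.194), none of which passed in edgeR. Without the library labelled D2 KD 3 the averaged value was −0.998 (adjusted p = 0.0290), which passed, where 4.97% of all tested genes were called. The difference between the strains' effects did not pass (0.32 ± 0.53, adjusted p = 0.987).

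Gabra5 was the other member whose B6 groups did not overlap, a pattern that 27.8% of all tested genes showed in B6. It was at 172, 169 and 187 CPM in B6 Ctrl and at 154, 135 and 139.8 CPM in B6 KD, a log2 fold change of −0.30 ± 0.14 (adjusted p = 0.248). In D2 it was at 166, 147 and 107 CPM in Ctrl and at 124, 133 and 145 CPM in KD (−0.06 ± 0.14, adjusted p = 1.0), and these overlapped. No member was free of overlap in D2, where 5.96% of all tested genes were.

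Gabra2 did not pass in the hairpin comparison, at 66.9 ± 10.2 CPM in B6 Ctrl and 67.5 ± 13.9 CPM in B6 KD, and at 198 ± 2.37 CPM in D2 Ctrl and 189 ± 15.7 CPM in D2 KD (SD, n = 3 each). Its log2 fold change was 0.01 ± 0.15 in B6 and −0.07 ± 0.15 in D2. Gabra4 gave 0.04 ± 0.08 and −0.05 ± 0.08, and Gabrb1 gave 0.14 ± 0.14 and 0.20 ± 0.15. Gabra3 gave −0.37 ± 0.21 in B6 and 0.23 ± 0.21 in D2, and the difference between them was 0.60 ± 0.30 (unadjusted p = 0.0700, adjusted p = 0.848). Gabrb2 gave −0.23 ± 0.65 and −0.32 ± 0.65, and changes of that size were not detectable beside its SE with 3 libraries a group.

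**Figure D4:**
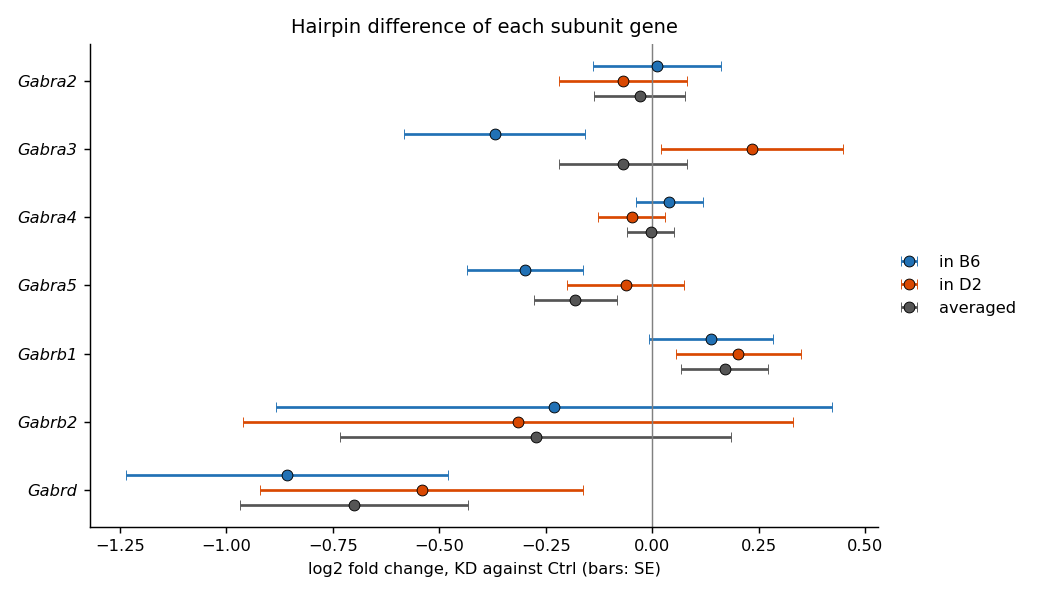
log2 fold change of each member in KD against Ctrl, in B6, in D2 and averaged over strains, with bars for the SE (edgeR). No member passed an adjusted p of 0.05; Gabrd lies farthest from 0, at −0.86 in B6 and −0.54 in D2.

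Other markers differed between libraries in the same comparison. The summed CPM of 8 interferon response genes was 58.2 to 69.4 in B6 Ctrl and 336 to 975 in B6 KD, and 66.5 to 167 in D2 Ctrl and 84.9 to 365 in D2 KD, with 84.9 in the library labelled D2 KD 3. All 8 of these genes were called higher in B6 KD. The 4 CA1 pyramidal cell markers summed to 345 to 441 CPM in B6 Ctrl and 237 to 313 CPM in B6 KD. In D2 they overlapped, at 331 to 359 CPM in Ctrl and 255 to 337 CPM in KD. The 4 dentate granule cell markers, which mark the hippocampal cells richest in delta subunit, summed to 288 to 356 CPM in B6 Ctrl. In B6 KD they summed to 280, 249 and 369.5 CPM, the last in B6 KD 3, the library high in cerebellar genes. Without B6 KD 3, the B6 KD libraries lay below the B6 Ctrl range. B6 KD 3 itself had the highest sum of all libraries and the lowest Gabrd of the B6 libraries (10.4 CPM). Between KD and Ctrl in B6, the median log2 difference of these 4 markers was −0.025, and 0 had an unadjusted p under 0.05 by edgeR. In D2 these markers summed to 156 to 268 CPM in Ctrl and 194 to 227 CPM in KD. The 5 astrocyte markers summed to 1729 to 1806 CPM in B6 Ctrl and 2642 to 3831 CPM in B6 KD. In D2 they overlapped, at 1824 to 3999 CPM in Ctrl and 1897 to 3019 CPM in KD. None of these marker genes was at 0 counts in any library. Their part in the values of Gabrd and Gabra5 was not tested.

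Genes that act with the receptor were read from lists of their pathways. Of 20 tested genes for the inhibitory synapse scaffold and receptor trafficking, Shisa7, an auxiliary subunit of GABA-A receptors, was called higher in D2 averaged over treatments (0.27 ± 0.08, adjusted p = 0.0442) and Nlgn3, a neuroligin gene, lower (−0.86 ± 0.12, adjusted p = 0.000328). The Shisa7 difference was 0.04 ± 0.12 within Ctrl (adjusted p = 0.913) and 0.50 ± 0.12 within KD (adjusted p = 0.0157). Between KD and Ctrl in B6, Trak2, an adaptor of kinesin transport, was called higher, at 245 ± 35.4 CPM in Ctrl and 425 ± 11.4 CPM in KD (0.79 ± 0.16, adjusted p = 0.0401). Shisa7 was called lower, at 273 ± 32.2 CPM and 184 ± 10.3 CPM (−0.57 ± 0.12, adjusted p = 0.0415). Gphn, the scaffold gephyrin, passed neither test.

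Of 10 genes of GABA synthesis, transport and breakdown, 0 were called between strains averaged over treatments by edgeR, DESeq2 or limma-voom, and 0 had an unadjusted p under 0.05. Within KD, 1 had such a p between strains and DESeq2 called 1. Between KD and Ctrl in B6, Slc6a11, which encodes an astrocytic GABA transporter, was lower, at 179 ± 14.2 CPM in Ctrl and 111 ± 16.7 CPM in KD (−0.69 ± 0.15, adjusted p = 0.0450). The GABA-making enzymes Gad1 and Gad2 passed neither test. Of 10 chloride transport genes, 0 were called between strains averaged over treatments by any of the 3 tools, and 1 had an unadjusted p under 0.05 by edgeR. Within KD each tool called 1, which in edgeR was Slc12a5 (0.39 ± 0.09, adjusted p = 0.0149), and within Ctrl DESeq2 called 1. Between KD and Ctrl in B6, Slc12a5, the neuronal chloride exporter that sets the direction of GABA currents, was lower, at 690.4 ± 35.9 CPM in Ctrl and 471 ± 49.9 CPM in KD (−0.55 ± 0.09, adjusted p = 0.0332).

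Of 6 genes of the GABA-B receptor, the metabotropic receptor for the same transmitter, 0 were called in B6 KD by edgeR and limma-voom, 1 by DESeq2 and 1 at an unadjusted p under 0.05 by edgeR. Between strains the auxiliary subunit gene Kctd12 was higher in D2, at 201 to 291 CPM against 0.0 to 25.5 CPM in B6 (4.39 ± 0.79, adjusted p = 0.00180). Its identifier was not found in GENCODE M21. Its B6 values were uneven, highest in B6 Ctrl 3 and lowest in B6 KD 3, as those of Gabrb2 were, and the cause was not tested. The receptor genes Gabbr1 (−0.29 ± 0.08, adjusted p = 0.0213) and Gabbr2 (−0.39 ± 0.10, adjusted p = 0.0138) were lower averaged over treatments. Within Ctrl their adjusted p was 0.0552 and 0.0141, and within KD 0.252 and 0.451. The 4 B6 KD calls of Trak2, Shisa7, Slc6a11 and Slc12a5 were each lost in at least 6 of the 12 fits that left out a library, and with library total or the choroid plexus score as a covariate. The strain call of Shisa7 was lost in 10 of those 12 fits and that of Gabbr1 in 6.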

How the data were processed

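Total RNA of whole hippocampus was made into mRNA libraries with a KAPA kit and sequenced as paired-end reads. By the study's methods, libraries had a repeat run because of shared barcodes, most of them holding the reads of both runs, and reads were aligned to the C57BL/6J or DBA/2J genome by strain. The submitters' processing notes name GRCm38 (mm10), RSEM 1.2.12, Bowtie2 2.2.0 and DESeq2. The authors deposited RSEM expected counts per gene, which share out reads that fit several genes, and these were rounded to whole numbers here. Use of strand in the counting was not given in the sources used here. A deposited table of normalized counts was not used. Symbols that a spreadsheet had turned into dates (27) were restored from gene identifiers, and 21933 of 22236 identifiers were found in GENCODE M21.

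Groups followed the strain and treatment labels, and replicate numbers are names only. Genes were filtered with filterByExpr of edgeR 4.0.16, scaled by TMM factors and fitted with 1 mean per group over all 12 libraries by the robust quasi-likelihood test in R 4.3.3. The 7 comparisons were each adjusted by Benjamini-Hochberg over all tested genes, with a threshold of 0.05. The script was tested on simulated counts. DESeq2 1.42.0 and limma-voom (limma 3.58.1) were among the alternatives. Levels per length used the union of GENCODE M21 exons. With 3 libraries a group, p-values measure only the spread between these libraries.

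The members and gene lists were chosen with earlier results of these data known. All members and Hp1bp3 are named and, from each list, up to 4 genes per direction called between strains (averaged over treatments) or between KD and Ctrl in B6, by size of change. Other genes are named by nearness of profile, 5 for Gabra2 and 3 for each other member. Results for some listed genes are not reported here. Genes named as not passing, and Gabre, were chosen after their values were seen.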

Additional observations from a re-analysis of the deposited data

How the results depend on the processing

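Alternatives were DESeq2, limma-voom, DESeq2 size factors within edgeR, no filter on low counts, the newer quasi-likelihood method, no robust estimation, library total or choroid plexus score as a covariate, a fit on only the 2 groups compared, and leaving out each library. The strain calls of Gabra2, Gabrb1 and Gabrb2 averaged over treatments passed in each fit that gave this comparison. On log2(CPM + 1) the permutation test of Gabra2 also gave p = 0.005. Because the strains did not overlap, it had to give this smallest value on either scale, so the change of scale tested nothing further. The number of members called between KD and Ctrl averaged over strains was 0, and 0 to 1 when a library was left out, the 1 being Gabrd without the library labelled D2 KD 3. Over all tested genes, the count called between KD and Ctrl in B6 was 418 by edgeR, 1688 by DESeq2, 0 with either covariate and 0 to 790 when a library was left out. Averaged over strains it was 0 by edgeR, 1241 by DESeq2, 15 by the newer quasi-likelihood method and 0 to 799 when a library was left out.

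Values that passed no test changed sign in places, and the cause was not tested. Not all of them were near 0 in the main edgeR fit. Gabrb2 was −0.27 averaged over strains, for example, and Gabrd was 0.32 in the interaction. Gabra2 between KD and Ctrl in B6 was −0.010 under DESeq2, −0.0025 under limma-voom, −0.0098 with DESeq2 size factors in edgeR and −0.0069 with only the 2 groups compared. Averaged over strains, Gabra2 was 0.0075 and Gabra4 0.0063 with the choroid plexus score as a covariate. In the interaction, Gabrb1 was −0.00080 and Gabrb2 0.00020 with library total as a covariate. Leaving out a library gave ranges of the log2 difference that crossed 0. Between KD and Ctrl in B6 they were −0.12 to 0.14 (Gabra2), −0.048 to 0.064 (Gabra4) and −0.80 to 0.77 (Gabrb2). In D2 they were −0.027 to 0.38 (Gabra3) and −0.22 to 0.068 (Gabra5). Averaged over strains they were −0.10 to 0.030 (Gabra2), −0.20 to 0.0040 (Gabra3), −0.056 to 0.010 (Gabra4) and −0.57 to 0.22 (Gabrb2). In the interaction they were −0.23 to 0.046 (Gabra2), −0.0038 to 0.21 (Gabrb1), −1.10 to 0.47 (Gabrb2) and −0.28 to 0.63 (Gabrd). Between strains they were −0.20 to 0.032 (Gabra3, averaged), −0.030 to 0.38 (Gabra3, in KD) and −0.64 to 0.28 (Gabrd, in KD).

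No paired analysis was possible because the labels give no replicate numbers. DESeq2 gave no adjusted p for Pcp2 between strains, which was left out. The planned share of Gabra2 in the summed alpha subunit level is not reported here.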

Other observations

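Markers of several cell types also differed between strains, averaged over treatments. The myelin gene Mobp, an oligodendrocyte marker, was lower in D2, at 626 to 989 CPM in B6 and 85.8 to 201 CPM in D2 (log2 fold change −2.57 ± 0.20 (SE), edgeR, adjusted p = 3.12e-06). Prox1, a transcription factor gene of dentate granule cells, was at 67.8 to 113 CPM in B6 and 7.05 to 50.7 CPM in D2 (−1.82 ± 0.44, adjusted p = 0.0113), and the other 3 dentate markers did not pass. Among 8 interneuron markers, the neuropeptide genes Sst (−0.40 ± 0.11, adjusted p = 0.0229) and Vip (0.47 ± 0.13, adjusted p = 0.0211) were called in opposite directions. Within treatments, Sst passed in Ctrl (−0.73 ± 0.16, adjusted p = 0.00810) and not in KD (−0.07 ± 0.15, adjusted p = 0.851), and Vip passed in KD (0.74 ± 0.18, adjusted p = 0.0161) and not in Ctrl (0.19 ± 0.18, adjusted p = 0.620). The microglial gene Tmem119 (−0.46 ± 0.13, adjusted p = 0.0270) and the endothelial gene Flt1 (−0.58 ± 0.12, adjusted p = 0.00473) were lower in D2. The averaged calls of Sst and Tmem119 were each lost in 6 of the 12 fits that left out a library and with library total as a covariate, and that of Vip in 2 of the 12. Within Ctrl, Prox1 (adjusted p = 0.165), Tmem119 (0.611) and Flt1 (0.0817) did not pass, and within KD each did. The Purkinje cell gene Pcp2 was at 0.31 to 9.88 CPM in B6, highest in B6 KD 3, and at most 0.057 CPM in D2 (edgeR, adjusted p = 0.00482). By edgeR, 0 markers of neurons, CA1 and CA3 pyramidal cells, astrocytes, choroid plexus, thalamus, striatum and the interferon response were called. In these lists, 1 astrocyte and 1 thalamus marker had an unadjusted p under 0.05, and DESeq2 and limma-voom each called 1 astrocyte marker and no other.

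Between KD and Ctrl in B6, all 8 interferon response genes were called higher by edgeR, 8 by DESeq2 and 6 by limma-voom. The largest differences were those of Irf7 (4.69 ± 0.71, edgeR, adjusted p = 0.0326), Isg15 (4.37 ± 0.69, adjusted p = 0.0326), Ifit1 (4.34 ± 0.66, adjusted p = 0.0326) and Usp18 (4.32 ± 0.79, adjusted p = 0.0361). Of 5 astrocyte markers, the water channel gene Aqp4 was called higher (1.202 ± 0.19, adjusted p = 0.0326). These 5 named calls were each lost in at least 5 of the 12 fits that left out a library, and with library total or the choroid plexus score as a covariate. By edgeR, 0 markers of the other cell types were called. At an unadjusted p under 0.05 there were 5 of 6 microglial, 2 of 4 CA1, 2 of 8 interneuron, 2 of 3 endothelial, 1 of 5 neuronal and 3 of 6 tested cerebellar markers, and 0 dentate, CA3, oligodendrocyte, choroid plexus, thalamus and striatum markers, against 3262 of the 15853 tested genes. DESeq2 called 4 microglial, 2 CA1, 2 interneuron, 1 neuronal and 1 cerebellar marker, and limma-voom called 0 of these.

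Among the other GABA-A subunits, the epsilon subunit gene Gabre was at 0.43 ± 0.27 CPM in B6 Ctrl and 2.201 ± 0.57 CPM in B6 KD (SD, n = 3 each). Its log2 difference of 2.36 ± 0.64 did not pass in edgeR (adjusted p = 0.0712). Of the 8 tested genes of that list, edgeR called 0 in this comparison, 1 had an unadjusted p under 0.05, DESeq2 called 1 and limma-voom called 0.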
